A study of Mus musculus with 6 samples.

Results

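The aryl hydrocarbon receptor (AhR) and the genes of its immediate partners were followed in activated mouse B cells, 7 genes in all. They are the receptor (*Ahr*), its dimer partners (*Arnt* and *Arnt2*), the chaperone proteins that hold it before ligand arrives (*Hsp90aa1*, *Hsp90ab1* and *Ptges3*) and its repressor (*Ahrr*). The genes were taken by name from what is known of the pathway, with earlier results of these data known. All 7 were among the 23420 gene symbols of the count table. Of these, 6 entered the comparison of genotypes, which covered 13682 genes, and *Arnt2* had too few reads.

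Splenic B cells came from Ahr+/+ and Ahr-/- mice on the C57Bl/6J background, 3 mice of each genotype. Cells of both genotypes received the same culture, with anti-IgM (10 μg/ml), an antibody that crosslinks the B-cell receptor, and IL-4 (20 ng/ml) for 8 h. FICZ, a high-affinity AhR ligand, was added at 250 nM and left for 4 h until harvest. No culture without stimulation or without FICZ is analysed here, so every value is a level in activated cells that had met ligand. The study's methods give the Ahr-/- line as B6.129-Ahr tm1Bra/J, a germline deletion, so that all cells of the mouse carry it. The animals were over 8 weeks old, without an age for each. Stranded mRNA libraries held between 22095096 and 53648787 counted reads.

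Without ligand, AhR rests in the cytosol, bound to a dimer of HSP90 and the co-chaperone p23. Ligand sends it to the nucleus, where it pairs with ARNT, and the pair binds dioxin response elements (DREs), whose core reads GCGTG. Among its targets are enzymes of ligand breakdown and also *Ahrr*, whose product pairs with ARNT and opposes AhR, so that the pathway limits itself. In B cells, *Ahr* is known to rise when the B-cell receptor and IL-4 receptor are engaged.

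Promoter sequence from RefSeq (GRCm38.p6) was matched by symbol for 4 of the 7 genes. *Ahr*, *Hsp90aa1* and *Hsp90ab1* had no entry in the table. The 250 bases before the RefSeq start are shown for the repressor, since its level differed most, and for *Arnt* and *Ptges3*, the other detected genes with an entry. Each is written 5′ to 3′ along the strand of its gene, and capitals mark the letters GCGTG, or CACGC where the core lies on the opposite strand.

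*Ahrr* (chr13:74292332-74292581, reverse strand): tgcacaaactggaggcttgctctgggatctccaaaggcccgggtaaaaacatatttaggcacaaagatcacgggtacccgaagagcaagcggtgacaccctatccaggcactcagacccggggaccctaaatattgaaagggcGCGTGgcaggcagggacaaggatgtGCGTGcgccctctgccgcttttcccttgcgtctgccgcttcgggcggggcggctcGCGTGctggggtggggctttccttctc

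*Arnt* (chr3:95434140-95434389, forward strand): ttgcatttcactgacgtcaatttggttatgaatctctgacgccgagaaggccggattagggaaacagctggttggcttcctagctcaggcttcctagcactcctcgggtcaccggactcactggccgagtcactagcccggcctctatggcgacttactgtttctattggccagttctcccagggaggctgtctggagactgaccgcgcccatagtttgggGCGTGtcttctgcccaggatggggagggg

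*Ptges3* (chr10:128058732-128058981, forward strand): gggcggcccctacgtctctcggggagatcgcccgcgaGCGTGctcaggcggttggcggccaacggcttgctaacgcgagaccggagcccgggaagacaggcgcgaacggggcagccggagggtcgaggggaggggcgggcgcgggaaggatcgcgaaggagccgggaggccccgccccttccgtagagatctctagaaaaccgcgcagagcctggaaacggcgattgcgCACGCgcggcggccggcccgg

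The *Ahrr* window held 3 cores, all on the strand of the gene, beginning 107, 82 and 27 bases before the start. The core 27 bases before the start is also a match to TNGCGTG, the longer form of the element. *Arnt* held 1 core, 29 bases before the start, and *Ptges3* held 2, beginning 213 and 21 bases before it, the nearer on the opposite strand. GENCODE, used for the gene positions below, starts *Ptges3* at 128058954, within this window. The nearer core lies inside the gene by that annotation. The window of *Arnt2* held none. Of 32851 promoter windows of this length, 28.2% held at least 1 core on either strand and 2.77% held 3 or more. TNGCGTG was found in 4.1% of the windows. The shares are over all windows, without regard to their content of G and C. That content was 60.4% for *Ahrr*, 57.2% for *Arnt* and 73.2% for *Ptges3*. The cores are matches of letters and no measure of binding.

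The members spanned a wide range of levels. Expressed per kilobase of annotated exon, so that genes of different length can be set side by side, *Hsp90ab1* stood highest in Ahr+/+ B cells at 99051 ± 2637 normalized counts per kilobase (SD, n = 3 mice). It ranked 3 among the 12795 tested genes with a known exon length. *Hsp90aa1* followed at 18626 ± 194 and ranked 71, and *Ptges3* at 9097 ± 274 ranked 147. *Ahr* itself reached 2138 ± 111 per kilobase and ranked 878, in the 93.1 percentile of tested genes. *Arnt* was lower at 315 ± 7.36, and *Ahrr* lower again at 34.9 ± 3.42, in the 30.4 percentile. In Ahr+/+ B cells no 2 neighbours in this order overlapped, and the order of these 6 genes was the same in Ahr-/- B cells. The values depend on the length used. Per kilobase of the principal transcript, *Arnt* stood at 935 ± 21.8 and *Ahrr* at 69.3 ± 6.79 in Ahr+/+ B cells, and the order of the 6 genes was the same.

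**Figure D1:**
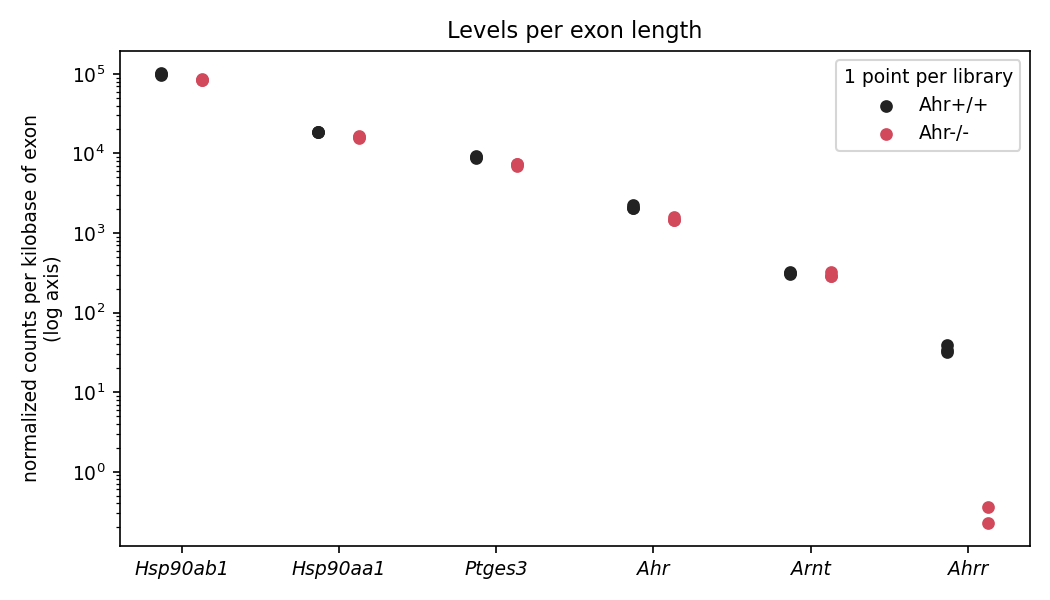
Levels of 6 AhR complex genes, as normalized counts per kilobase of exon on a log axis, with 1 point per library in Ahr+/+ (black) and Ahr-/- (red) B cells. The order from *Hsp90ab1* to *Ahrr* is the same in both genotypes, the single Ahr-/- library with no *Ahrr* reads cannot be drawn on a log axis, and *Arnt2* is left out.

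These levels carry a limit from sequence. Of the stretches of 50 bases in the main *Hsp90aa1* transcript, 58.5% also occur in transcripts of other annotated genes, all of them pseudogenes. The share was 22.2% for *Ptges3* and 4.49% for *Hsp90ab1*. It was 0 for *Ahr*, *Ahrr*, *Arnt* and *Arnt2*, and the HSP90 genes share no such stretch with each other. Where the authors' counting placed reads that fit more than 1 gene is not given in the sources used here, so the level of *Hsp90aa1* relative to other genes is uncertain. The comparison between genotypes sets each gene against itself, but whether shared reads enter its fold change was not tested.

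Between genotypes, 5 of the 6 tested members were lower in Ahr-/- B cells, and none was higher. The test was edgeR's quasi-likelihood test, with p-values adjusted over all tested genes and a threshold of 0.05. Over all tested genes, 17.9% passed it, 8.13% as lower and 9.79% as higher. With a log2 fold change past 1 as well, 3.4% passed, and *Ahrr* was the member that did. *Ahr* and *Ahrr* differed more than the 3 chaperone genes, and *Arnt* did not pass. For the 5 lower genes the ranges of the genotypes were apart, which held for 33.5% of all tested genes. In bulk libraries, fewer cells of a type and less RNA per cell cannot be told apart.

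**Figure D2:**
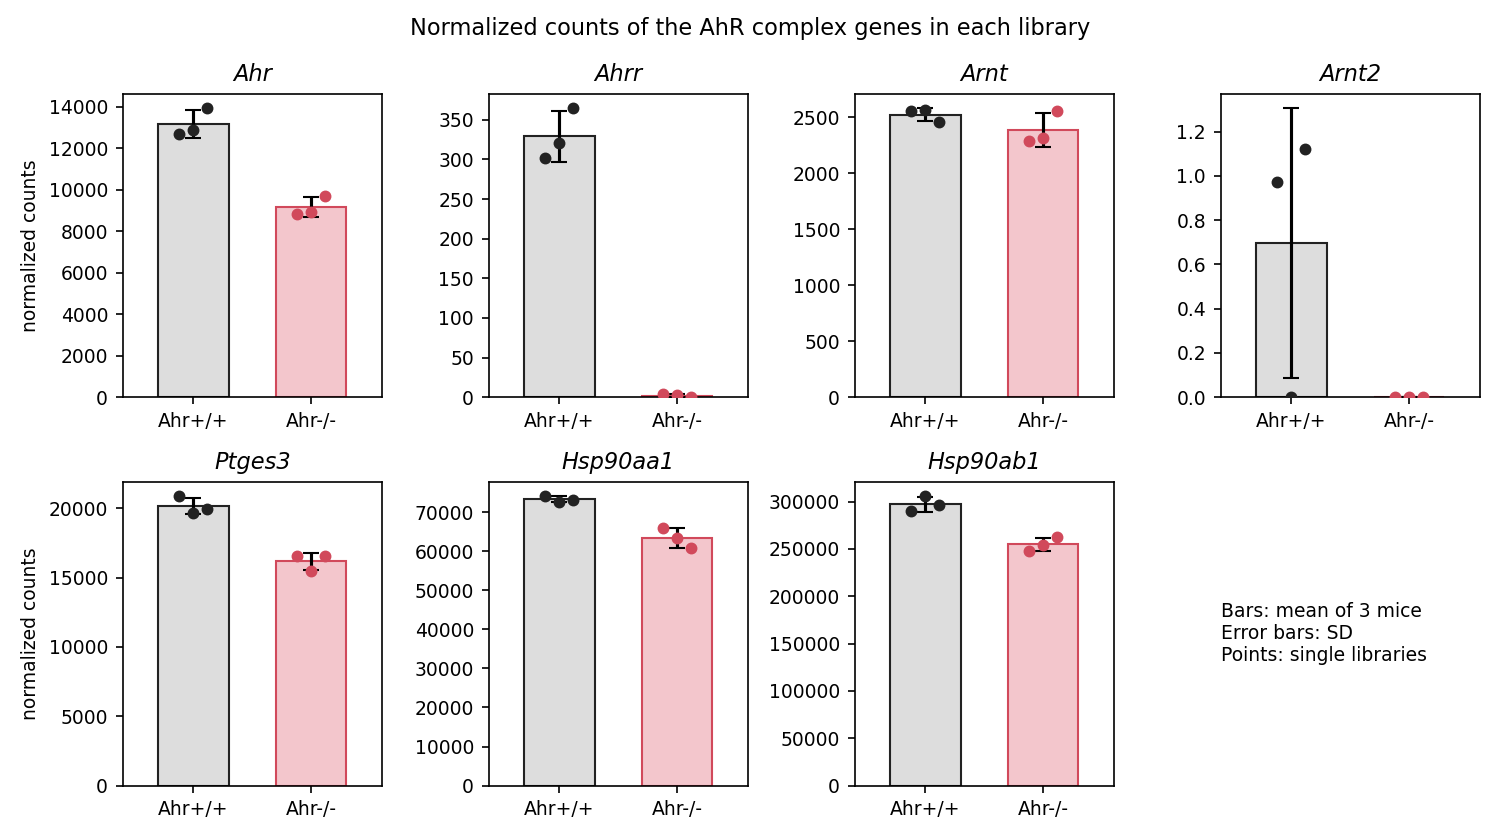
Normalized counts of each of the 7 genes in the 3 Ahr+/+ and 3 Ahr-/- libraries, each panel with its own linear axis from 0, with bars for the mean, error bars for the SD and points for single libraries. The points of the genotypes are apart for *Ahr*, *Ahrr*, *Ptges3*, *Hsp90aa1* and *Hsp90ab1* and overlap for *Arnt*.

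*Ahr*, the ligand-binding receptor and the gene altered in the Ahr-/- mice, lies on the reverse strand of chromosome 12 of GRCm38 from 35497974 to 35535038. It kept most of its reads in Ahr-/- B cells. Normalized counts were 12681, 12892 and 13953 in Ahr+/+ and 8856, 8949 and 9717 in Ahr-/- libraries. The lowest Ahr+/+ library was above the highest Ahr-/- library. The log2 fold change was −0.52, its standard error 0.047 and edgeR's adjusted p 7.1e-06. The 95% interval reached from −0.62 to −0.42. On the linear scale this fitted change is a fall of 30.3%. The two-sided exact permutation test gave p = 0.1, the smallest possible with 3 mice against 3, and it gave the same value for each of the other 4 genes whose genotypes did not overlap.

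The tm1Bra allele is known to lack exon 2, which encodes part of the DNA-binding region of the receptor. In the annotated transcript Ahr-202, exon 2 runs from 35526681 to 35526868 on chromosome 12 and has 188 bases, all coding. It makes up 3.05% of the 6163 annotated exon bases of *Ahr*. The remaining 10 exons of this transcript include a last exon of 2727 bases, which alone makes up 44.2%. A count over the whole gene therefore says little about exon 2, and the level of *Ahr* does not by itself check the genotype. Of the 7 tested targets described further on, 6 separate the libraries by genotype, *Lpcat2* in the other direction, and *Il10* does not. Over all tested genes the share that does so is 33.5%. The target list was chosen with earlier results of these data known. *Ahr* shares 127 exon bases with *Gm48236*, a noncoding gene on the opposite strand. The sources used here do not give the strand setting of the counting step.

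The repressor was the member that differed most. *Ahrr* lies on the reverse strand of chromosome 13 from 74211118 to 74292331 and overlaps no other annotated gene. The Ahr+/+ libraries held 311, 319 and 325 reads on it, and the Ahr-/- libraries 2, 3 and 0. Normalized for depth, Ahr+/+ libraries had 302, 321 and 365 counts. No Ahr-/- library exceeded 3 reads, the number set here as the smallest that the depth can show. By this floor *Ahrr* was at least 98.6-fold lower in Ahr-/- B cells (adjusted p = 2.6e-09 from edgeR). A floor of 3 reads corresponds to between 0.0555 and 0.134 CPM (counts scaled to library size) in the 6 libraries and covers counting error only. In Ahr+/+ B cells there was little repressor message beside that of the receptor. Per kilobase, the ratio of *Ahrr* to *Ahr* was 0.0156, 0.0163 and 0.0171 in the Ahr+/+ libraries, and 0.0278, 0.0291 and 0.0305 per kilobase of the principal transcripts.

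Of the partners, *Arnt* was present in both genotypes and *Arnt2* stayed under the floor. *Arnt*, on the forward strand of chromosome 3 from 95434388 to 95497240, encodes the protein with which AhR binds DNA. It had 2551, 2563 and 2455 normalized counts in Ahr+/+ and 2284, 2312 and 2558 in Ahr-/- libraries. Ahr-/- replicate 3 lay within the Ahr+/+ range, while the other Ahr-/- libraries lay below it. The log2 fold change was −0.079, its standard error 0.047 and edgeR's adjusted p 0.30, and the 95% interval ran from −0.18 to 0.024. The exact permutation test gave p = 0.3. Without Ahr-/- replicate 3 the log2 fold change was −0.14 (adjusted p = 0.041 from edgeR), past the threshold, so this 1 library decides the call, and over all alternatives the adjusted p from edgeR, DESeq2 or limma lay between 0.041 and 0.64.

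The ratio of *Ahr* to *Arnt* reads was lower in Ahr-/- libraries, as *Ahr* fell and *Arnt* did not pass. It was not tested. In Ahr-/- libraries the *Ahr* reads come from the altered gene, so the ratio is not one of intact receptor to partner. Per kilobase, the Ahr+/+ libraries held 6.46, 6.54 and 7.38 times as much *Ahr* as *Arnt*. The Ahr-/- libraries held 5.04, 5.03 and 4.93 times as much. The ranges do not overlap, which held for 33.5% of all tested genes taken singly. Over the principal transcripts, of 5548 bases for *Ahr* and 2699 for *Arnt*, the ratios were 2.42, 2.45 and 2.76 in Ahr+/+ and 1.89, 1.88 and 1.85 in Ahr-/- libraries, so their size rests on the length used. By either length *Ahr* exceeded *Arnt* in each library.

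*Arnt2*, a paralogue of *Arnt* best known from the nervous system, lies on chromosome 7 from 84246278 to 84410176. It had 1 read in Ahr+/+ replicate 1, 1 in replicate 3 and none in any other library. Both genotypes are below the floor, so no fold is given. Of its exon bases, 214 are shared with *Gm30873* on the opposite strand. At this depth the cells cannot be said to lack *Arnt2*, only to hold less than the floor.

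The chaperone genes were the most abundant members, and each was modestly lower in Ahr-/- B cells. *Ptges3*, on chromosome 10 from 128058954 to 128077272, encodes p23, which steadies the HSP90 dimer in its closed state around a client protein. Its normalized counts were 20853, 19695 and 19954 in Ahr+/+ and 16540, 15450 and 16542 in Ahr-/- libraries. All Ahr-/- libraries were well below the lowest Ahr+/+ library. The log2 fold change was −0.32, its standard error 0.039 and edgeR's adjusted p 9.1e-05. The 95% interval reached from −0.40 to −0.23, and the mean fell by 19.8%.

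*Hsp90ab1*, the constitutive HSP90, on chromosome 17 from 45567775 to 45573271, had 289715, 305427 and 296016 normalized counts in Ahr+/+ libraries. The Ahr-/- libraries had 248136, 254337 and 262237, all lower. The log2 fold change was −0.22, its standard error 0.034 and edgeR's adjusted p 5.0e-04. The 95% interval reached from −0.29 to −0.15. Its level lay between 6456 and 7946 CPM in the 6 libraries.

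*Hsp90aa1*, the stress-inducible HSP90, lies like *Ahr* on chromosome 12, from 110690605 to 110702728, 75.2 Mb away. It had 73989, 72465 and 73201 normalized counts in Ahr+/+ and 65955, 63307 and 60740 in Ahr-/- libraries. The genotypes again did not overlap. The log2 fold change was −0.21, its standard error 0.036 and edgeR's adjusted p 0.0012. The 95% interval reached from −0.29 to −0.13.

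The proportion of the HSP90 forms overlapped between genotypes. Per kilobase, *Hsp90ab1* was 5.13, 5.53 and 5.30 times as abundant as *Hsp90aa1* in Ahr+/+ libraries and 4.93, 5.27 and 5.66 times in Ahr-/- libraries. These ranges overlap. *Hsp90ab1* was likewise 10.9 ± 0.599 times as abundant as *Ptges3* in Ahr+/+ and 11.7 ± 0.542 times in Ahr-/- libraries (mean ± SD of 3), with overlapping values. Against *Ahr*, which fell further, it was 46.4 ± 2.59 and 57.2 ± 1.52 times as abundant.

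**Figure D3:**
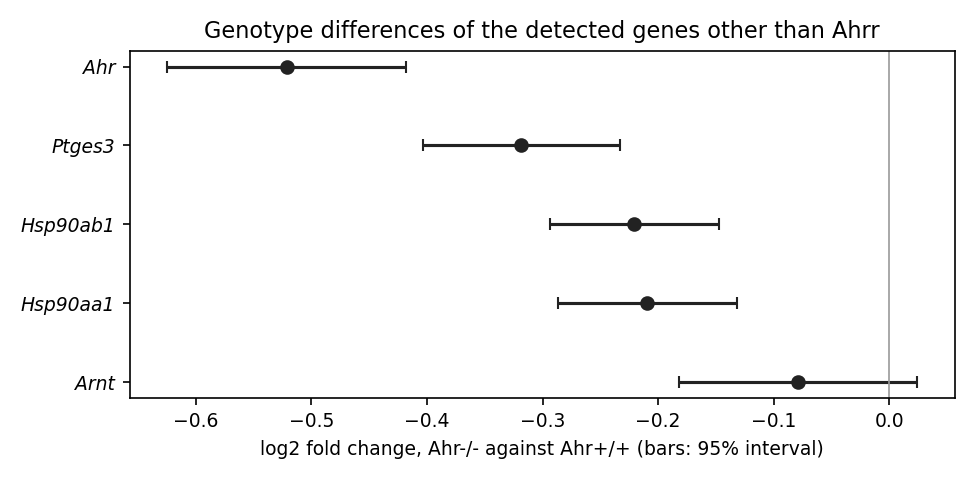
Log2 fold changes of Ahr-/- against Ahr+/+ B cells for the 5 tested genes other than *Ahrr*, with points for the estimate from edgeR and bars for the 95% interval. The intervals of *Hsp90aa1*, *Hsp90ab1*, *Ptges3* and *Ahr* lie below 0, and that of *Arnt* includes 0.

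The wider chaperone machinery held genes of either direction. Of 31 co-chaperones and HSP70 partners of HSP90, 5 passed the test, 3 lower and 2 higher, which is near the 17.9% of all tested genes. Their median log2 fold change was −0.034, against 0.0022 over all tested genes. *Fkbp4*, an immunophilin that binds HSP90 in steroid receptor complexes, had a log2 fold change of 0.018 (adjusted p = 0.79 from edgeR).

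The lower co-chaperones were *Dnajb1* (−0.22), *Tomm34* (−0.20) and *Dnaja1* (−0.16), of which *Dnajb1* and *Dnaja1* encode J-domain partners of HSP70. *Bag2*, an HSP70 nucleotide exchange factor, rose from 229 to 352 normalized counts on average, a log2 fold change of 0.62, its standard error 0.093 and edgeR's adjusted p 4.8e-04. *Ppp5c*, a phosphatase that binds HSP90, was higher by 0.14 (adjusted p = 0.035 from edgeR) and is named as the last of the 5. Without Ahr+/+ replicate 1 or without Ahr-/- replicate 2, only 3 of the 31 passed, and *Dnaja1* and *Ppp5c* were lost in each case. *Ppp5c* was also lost without Ahr+/+ replicate 2 or 3.

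Among 16 tested genes of the other HSP90 forms and heat shock proteins, 3 were lower and none was higher. Over all tested genes these shares were 8.13% and 9.79%, and 17.9% in either direction. The median log2 fold change of the 16 was −0.055. *Hspa4l*, of the HSP110 group of HSP70-related chaperones, had a log2 fold change of −0.44, its standard error 0.051 and edgeR's adjusted p 5.3e-05. *Hspa1b*, an inducible HSP70, fell from 57.3 to 28.0 normalized counts on average, and *Hsph1* (HSP105) by 0.13 on the log2 scale. *Hsph1* no longer passed with library size alone or without Ahr+/+ replicate 1 or 3 or Ahr-/- replicate 2 or 3 (adjusted p up to 0.11 from edgeR). The HSP90 of the endoplasmic reticulum, *Hsp90b1*, and that of mitochondria, *Trap1*, had log2 fold changes of −0.056 and −0.055 and did not pass (adjusted p = 0.29 and 0.30 from edgeR). *Hsf1*, the main heat shock transcription factor, had −0.027 (adjusted p = 0.72 from edgeR). Whether the cytosolic forms differed from these compartment forms was not tested.

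**Figure D4:**
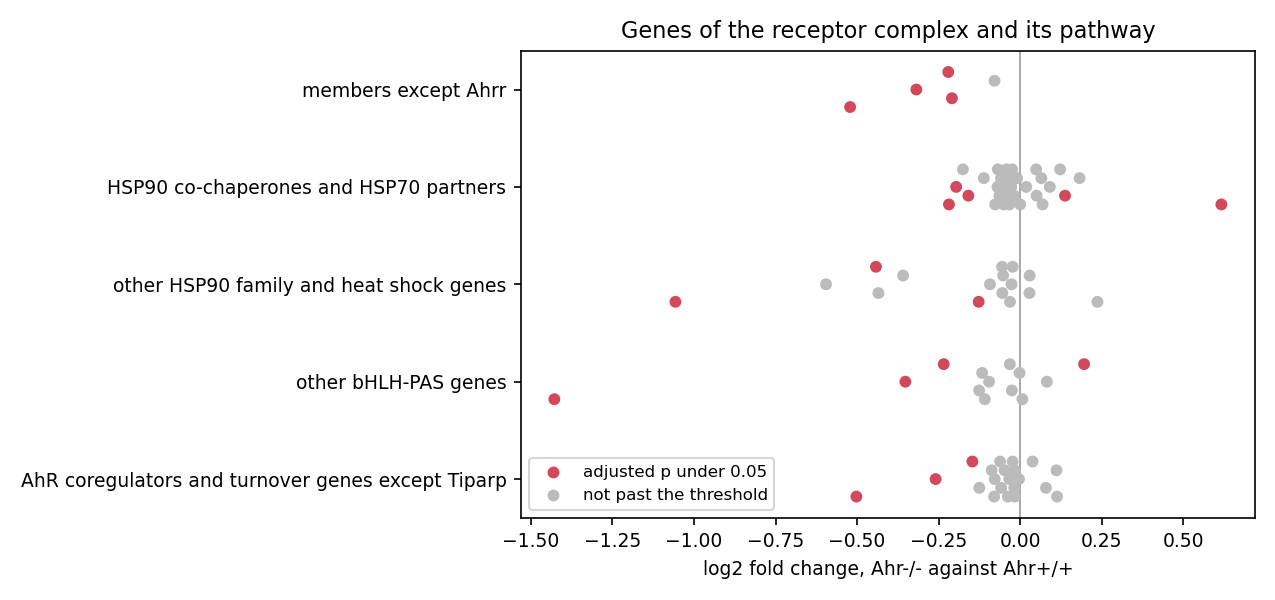
Log2 fold changes of Ahr-/- against Ahr+/+ B cells for 5 tested members and for 4 lists of pathway genes, with 1 point per gene drawn, red where the adjusted p was under 0.05, offset vertically for legibility. The 5 members drawn lie below 0, the co-chaperones scatter around it with *Bag2* highest, and *Ahrr* (−7.56) and *Tiparp* (−4.31), both far below 0, are left out.

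AhR and ARNT belong to the bHLH-PAS family, of which 13 other listed genes, with the PAS proteins of the clock and of the p160 coactivators, could be tested. Of these 3 were lower and 1 was higher, against 8.13% and 9.79% of all tested genes, with a median log2 fold change of −0.096. *Hif1a*, the oxygen-regulated factor that also pairs with ARNT, had a log2 fold change of −0.35, its standard error 0.037 and edgeR's adjusted p 2.5e-05, from 6316 to 4945 normalized counts on average. *Npas4*, an activity-induced factor, fell from 55.7 to 20.5, and *Clock* by 0.23 on the log2 scale, a call lost without Ahr+/+ replicate 3 or Ahr-/- replicate 2. *Per1* rose by 0.20 (adjusted p = 0.0032 from edgeR). The p160 coactivators *Ncoa1*, *Ncoa2* and *Ncoa3* did not pass (adjusted p = 0.74, 0.76 and 0.093 from edgeR).

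Of 22 genes for coregulators and turnover of AhR, 4 were lower and none was higher. Over all tested genes these shares were 8.13% and 9.79%, and 17.9% in either direction. *Tiparp*, an AhR target whose product modifies AhR with ADP-ribose, fell from 24015 to 1218 normalized counts on average. Its log2 fold change was −4.31, its standard error 0.050 and edgeR's adjusted p 1.6e-14. *Nfe2l2*, which encodes NRF2, had a log2 fold change of −0.50, *Xpo1*, the main nuclear exporter, −0.26 and *Rela* −0.15. *Rela* passed narrowly (adjusted p = 0.0485 from edgeR) and did not pass with library size alone, the stricter filter, the replicate block or any library left out other than Ahr-/- replicate 3 (adjusted p up to 0.19 from edgeR). The median of the 22 was −0.043. The coactivators *Ep300* and *Crebbp* did not pass (adjusted p = 0.18 and 0.17 from edgeR).

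In a list of 13 known AhR targets, 7 could be tested, 5 were lower and 1, *Lpcat2*, was higher, against 8.13% and 9.79% of all tested genes. Of the 5, *Tiparp* and *Nfe2l2* are also counted in the coregulator list. The call of *Lpcat2* was lost under 6 of 14 other fits, DESeq2, limma and the fits without Ahr+/+ replicate 1 or 3 or Ahr-/- replicate 1 or 2. *Cyp1a1* averaged 5246 normalized counts in Ahr+/+ cells and 5.36 in Ahr-/- cells, *Nqo1* had 1221 and 53.8, and *Cyp1b1* had 229 and none.

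The genes most like the receptor and the repressor over the 6 libraries were found from the root mean square difference of log2 CPM, each gene centred on its own mean. Nearest to *Ahr* were *Slc6a9*, *Zmiz1* and *Lmo2*, at 0.041, 0.046 and 0.049. Nearest to *Ahrr* were *Cyp1b1*, *Ccno* and *Asb2*. *Ahrr*, *Cyp1b1* and *Ccno* had no more than 3 reads in any Ahr-/- library, where their log2 CPM is set by the prior count and the depth, so no distance or order is given. This likeness is a description over 6 libraries of 2 genotypes and holds the genotype difference itself.

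The libraries were checked against their labels. All carried the defining B-cell markers *Cd79a*, *Cd79b*, *Ms4a1* and *Pax5*, and 6 of 9 tested B-cell markers were higher in Ahr-/- libraries and none lower, against 9.79% and 8.13% of all tested genes. Their sum lay between 3000 and 3240 CPM in Ahr+/+ and between 3563 and 3782 in Ahr-/- libraries. All 6 libraries carried Y-linked *Ddx3y* and no more than 11 reads of *Xist*. Of the 4 Y-linked genes, *Ddx3y* and *Kdm5d* were lower in Ahr-/- libraries (log2 fold changes −0.21 and −0.25, adjusted p = 0.0097 and 0.0061 from edgeR), differences of the size seen for the HSP90 genes, and *Uty* and *Eif2s3y* did not pass. Without Ahr-/- replicate 2 *Ddx3y* no longer passed (adjusted p = 0.051 from edgeR).

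Markers of other cells are set against the 17.9% of all tested genes that passed (9.79% higher and 8.13% lower). Of 10 plasmacytoid dendritic cell markers 8 were higher and 1 lower, and their sum lay between 890 and 938 CPM in Ahr+/+ and between 1073 and 1097 in Ahr-/- libraries. Most of that sum came from *Irf8* and *Tcf4*, which B cells also express, and *Tcf4* was the marker that was lower. *Siglech*, a defining marker, had 56.8 and 270 normalized counts on average. Of 9 conventional dendritic cell markers 5 were higher and 1 lower, with narrowly overlapping sums of 21.7 to 24.9 and 24.8 to 29.9 CPM. Most of the Ahr+/+ sum was *Zbtb46*, the marker that was lower (552 and 418 normalized counts), while *Itgax* (148 and 302), *Itgae* (19.7 and 76.3) and *Cd209a* (6.5 and 36.5) were higher, and the median log2 fold change of the list was 1.06. Of 8 T-cell markers 1 was higher and 2 lower, above the share of all genes, with overlapping sums of 159 to 169 and 160 to 185. Nearly all of that sum was *Lck* (5968 and 6258 normalized counts), which did not pass. *Cd5*, which some B cells also carry, was higher (54.1 and 135), *Cd28* (78.5 and 43.5) and *Cd3e* (33.9 and 14.1) were lower, and *Cd3d*, *Cd3g*, *Cd4* and *Cd8a* did not pass. Of 9 macrophage and monocyte markers 1 was higher and 1 lower, near the share of all genes, with overlapping sums of 32.7 to 42.7 and 18.9 to 33.1. *Emr1* was the marker that was lower (650 and 54.1 normalized counts). *Cd14* was higher (7.08 and 24.7), a call lost without Ahr+/+ replicate 1 or 3 or Ahr-/- replicate 1 or 2. The median log2 fold change of the list was 0.60. Of 5 tested neutrophil and erythroid markers none passed the edgeR test (0 at an unadjusted p under 0.05, the lowest being 0.146), and *Hba-a1*, *Hba-a2* and *Hbb-b1* had no reads in any library. The part of these cells in the differences of the members was not tested.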

How the data were processed

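RNA was sequenced from splenic B cells of 3 Ahr+/+ and 3 Ahr-/- mice, grouped and numbered by their labels. The authors deposited raw counts of reads per gene symbol. The submitters' processing notes name TopHat2, HTSeq, DESeq and mm10, without options or an annotation. Normalized counts and the authors' own comparison, with fold changes and p-values, were not used here.

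The test was run on the raw counts (edgeR 4.0.16, R 4.3.3). A gene entered it with a summed count of 10 or more, with TMM library sizes, a quasi-likelihood fit with genotype as its only term and a prior count of 0.125. Benjamini–Hochberg adjustment ran over all 13682 genes tested, at a threshold of 0.05. Normalized counts are counts divided by the TMM-scaled library size relative to its mean. The standard error is the absolute log2 fold change divided by the square root of F, and 95% intervals use the fit's degrees of freedom. Positions and exon lengths are from GENCODE M21 (GRCm38), and 93.5% of tested symbols had a length. The fit was tested on simulated data. Replicates of a genotype differed by more than sampling noise (chi-square over its degrees of freedom, 3.96 to 9.24), and none was counted as a duplicate. Depth was 22095096 to 53648787 counts per library. For genes with many reads the spread between mice (common biological coefficient of variation 0.0476) limits the precision, and depth limits it for genes with few.

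The members and lists were chosen with earlier results of these data known. Named genes are the 7 members, *Fkbp4*, up to 4 called genes of lowest p-value in each list, and the 3 genes most like *Ahr* and *Ahrr*. *Ppp5c*, *Lpcat2* and genes named as not passing, or as defining markers, were named after their values were seen. Some genes that the rule names are not reported here. Alternatives were DESeq2 size factors, library size alone, other filters, DESeq2 1.42.0, limma 3.58.1 (voom), a robust fit, a replicate block, a prior count of 2, a threshold of 0.01 and leaving out each library. Calls of single list and marker genes under these fits, and ratios over principal transcripts, were added after seeing the data.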

Additional observations from a re-analysis of the deposited data

How the results depend on the processing

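Of the 6 tested members, *Ahr*, *Ahrr*, *Ptges3*, *Hsp90aa1* and *Hsp90ab1* kept their direction and their side of the threshold under all 15 alternatives run. The prior count of 2 moves only the printed fold change, so 14 of these alternatives could have changed a call. With libraries left out in turn, log2 fold changes lay between −0.57 and −0.48 for *Ahr*, −7.97 and −6.96 for *Ahrr*, −0.34 and −0.29 for *Ptges3*, −0.24 and −0.18 for *Hsp90aa1*, and −0.24 and −0.20 for *Hsp90ab1*. *Arnt* stayed negative, between −0.14 and −0.052, and passed the threshold only without Ahr-/- replicate 3, at −0.14. The fitted value of *Ahrr* was −6.51 with a prior count of 2, a smaller fold than the bound from the floor of 3 reads. *Arnt2* was below the filter, so no alternative is given for it.

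At a threshold of 0.01, 1473 genes were changed, against 2453, and 3 co-chaperones passed, against 5. With libraries left out in turn, between 1664 and 2601 genes passed, the fewest without Ahr-/- replicate 2, and between 3 and 7 co-chaperones. Of 20 called genes of the pathway lists, 6 lost their call under at least 1 of 14 fits, *Rela* under 8, *Lpcat2* under 6, *Hsph1* under 5, *Ppp5c* under 4, and *Clock* and *Dnaja1* under 2 each. Of 28 called marker and sex-linked genes, 6 did, *Cr2* under 7, *Cd14* under 4, and *Ccr9*, *Clec10a*, *Ddx3y* and *Fcer2a* under 1 each. The share of changed genes that were lower was 45.4%, and 36.2% with library size alone. With the replicate block, 2303 genes passed. Same-numbered libraries correlated by −0.030, 0.12 and −0.045 in their deviations from the genotype means, and Ahr-/- replicate 3 correlated best with Ahr+/+ replicate 1, so the numbers were not taken as pairs. Depth limits what can be said of *Arnt2* and of *Ahrr* in Ahr-/- B cells, where no library exceeded 3 reads.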
